A study of Homo sapiens with 6 samples.

Results

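The genes of the actin cytoskeleton and the targets of serum response factor (SRF) formed a list of 47 members in RNA-seq of PK-1 and Panc-1, which are 2 established human cell lines of pancreatic cancer of the ductal type (PDAC). Members were found by gene symbol among the 53826 entries listed for every library, and all 47 were found, each as a single entry. Of them, 45 had at least 5 TPM (a share of all transcripts, corrected for transcript length) in at least 1 library, as did 12412 of all entries. The remaining pair was ACTA2 and CNN1.

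Each line had a control culture and was exposed for 24 h to an inhibitor of retinoic acid receptor gamma, either LY2955303 (RARγi-1) or MM11253 (RARγi-2). The series asked which transcripts respond when signaling through this nuclear receptor is blocked. The doses used for the RNA-seq and the vehicle of the controls are not given in the sources used here. The library titles name the inhibitor and were used for grouping, while the treatment entry of both RARγi-2 libraries reads RARγi-1.

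Each of the 6 conditions had 1 library, so the differences below could not be checked against replicates or tested. The authors deposited log2 TPM with everything under 1 TPM raised to 1 TPM, called the floor here. TPM keeps no read number, so the depth is unknown. Between 13149 and 13652 entries per library lay above the floor. The fold change of a gene was the log2 (TPM + 1) of the treated culture minus that of the control culture of its line, which understates the change of low genes. As the nearest measure of variation, the robust SD of the log2 difference between both treated libraries of a line was 0.41 for PK-1 and 0.32 for Panc-1. It is called the spread, and it also holds real differences between the inhibitors. The response difference is the fold change of PK-1 minus that of Panc-1 for the same inhibitor, with a spread of 0.52. TPM is a share of each library, so fewer transcripts of a gene per cell and more RNA from other genes cannot be told apart. Rescaling by median ratios would move the PK-1 fold changes with RARγi-1 by -0.11, and every other comparison by less than 0.1.

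Actin monomers assemble into filaments, which myosin II pulls on and which tropomyosins, crosslinkers and adhesion proteins stabilise and anchor. Monomeric actin also holds the coactivators of SRF, the MRTF proteins, out of action, so that assembly of filaments frees them to switch on SRF targets. SRF binds a short DNA element called the CArG box, and actin genes and many genes of filament proteins are among its known targets.

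In Panc-1, the median member was lower after both inhibitors than the median of all entries, and in PK-1 the members stayed closer to the control. ACTB and ACTG1, the cytoplasmic actins, together held 12617 TPM in the Panc-1 control, 3476 after RARγi-1 and 2325 after RARγi-2. In PK-1 their sum was 10358, 9703 and 6201 TPM in the same order. The same contrast was seen for TMSB4X, TAGLN2, CNN2 and ACTN4, whereas CNN3 went the other way and was lower in PK-1.

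The CArG box is shown for those members with a box whose response difference was more than 2-fold with both inhibitors, for SRF itself and for TPM4. This places the element beside the values that follow. FHL2, which also has a box and was past 2-fold with RARγi-2 only, is not shown. Neither are ACTN1 and FHL1, which have a box and were not past 2-fold with either inhibitor. Promoter windows of RefSeq on GRCh38.p14, from 250 bases before to 50 bases after each start site, matched 43 of the 47 members, with 84 windows. ACTB, ARPC1B, MYL9 and TAGLN were not matched. A CArG box, which reads as the same pattern on both strands, was present in 11 windows of 9 members (20.9% of those matched). In all 35116 windows of the table, 438 of 27305 genes (1.60%) held one. The list was drawn up to hold SRF targets, so a higher share among its members was built in and is not a result. The members also had more windows per gene. The members with a box were ACTG1, CNN2, FLNA, TGFB1I1, SRF, TPM4, ACTN1, FHL1 and FHL2. Most members past 2-fold in the response difference with both inhibitors had no box in these windows. They were ACTN4, TAGLN2, CNN1, CNN3, TPM1, ZYX, TMSB4X and PDLIM7, while ACTB, past 2-fold as well, could not be searched. A match is a description of the letters only. Capitals mark the box, and each run is written 5′ to 3′ on the strand of the gene, on chr17:81512864-81512913 (minus strand) for ACTG1, chr19:1026499-1026548 (plus) for CNN2, chrX:154374699-154374748 (minus) for FLNA, chr16:31473134-31473183 (plus) for TGFB1I1, chr6:43171219-43171288 (plus) for SRF and chr19:16067345-16067394 (plus) for TPM4.
ACTG1: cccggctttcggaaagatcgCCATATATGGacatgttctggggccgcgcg
CNN2: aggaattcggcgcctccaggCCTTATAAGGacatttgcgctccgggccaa
FLNA: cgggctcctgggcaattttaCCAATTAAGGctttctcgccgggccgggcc
TGFB1I1: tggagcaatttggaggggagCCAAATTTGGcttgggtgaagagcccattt
SRF: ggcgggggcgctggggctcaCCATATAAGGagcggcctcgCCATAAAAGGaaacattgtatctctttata
TPM4: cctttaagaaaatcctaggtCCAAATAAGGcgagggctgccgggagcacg
The first base of the box lay 94 bases before the start site in ACTG1 and FLNA, 89 in CNN2, 51 in TGFB1I1 and 173 in TPM4, and the SRF run holds 2 boxes. Over the 9 members with a box, the median fold change (log2) was 0.26 and -0.16 in PK-1 with RARγi-1 and RARγi-2, and -0.45 and -0.95 in Panc-1. Over the 34 matched members without one, it was -0.13 and -0.26 for PK-1, and for Panc-1 it was -0.39 and -0.68. More than 2-fold lower in Panc-1 were 2 and 4 of the 9 with RARγi-1 and RARγi-2, and 9 and 12 of the 34. Of the 12412 entries with at least 5 TPM, 6.51% and 12.0% were. Members with a box thus include genes that were lower in Panc-1, such as ACTG1 and CNN2, and TGFB1I1, which was higher in PK-1. They also include FHL1, which was higher with both inhibitors in Panc-1 (0.38 and 0.08) and in PK-1 (0.75 and 0.17).

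Counts over the list gave the same contrast. With RARγi-1, 13 of the 47 members (27.7%) were more than 2-fold lower in Panc-1, where 6.51% of all entries tested were, and none was more than 2-fold higher, where 7.86% of entries were. With RARγi-2, 18 members (38.3%) were more than 2-fold lower in Panc-1 against 12.0% of entries, and none was more than 2-fold higher against 9.02%. Both counts of lower members include CNN1, which did not reach 5 TPM in any library. The RARγi-2 count also includes CALD1, which did not reach 5 TPM in Panc-1. Over the 44 members that reached 5 TPM in Panc-1, the counts were 12 and 16. In PK-1, 2 members (CNN3 and MYL9) were more than 2-fold lower with RARγi-1 against 5.20% of entries, and TGFB1I1 alone was more than 2-fold higher against 9.91%. With RARγi-2, 6 members (CNN3, MYL9, MYH10, TPM1, VCL and CORO1C; 12.8%) were more than 2-fold lower in PK-1, close to the 13.5% of entries, and TGFB1I1 alone was more than 2-fold higher against 12.9%. The median fold change (log2) of the members was -0.03 and -0.22 in PK-1 with RARγi-1 and RARγi-2, beside 0.13 and 0.00 over all entries tested. In Panc-1 it was -0.42 and -0.78, beside 0.05 and 0.00.

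**Figure D1:**
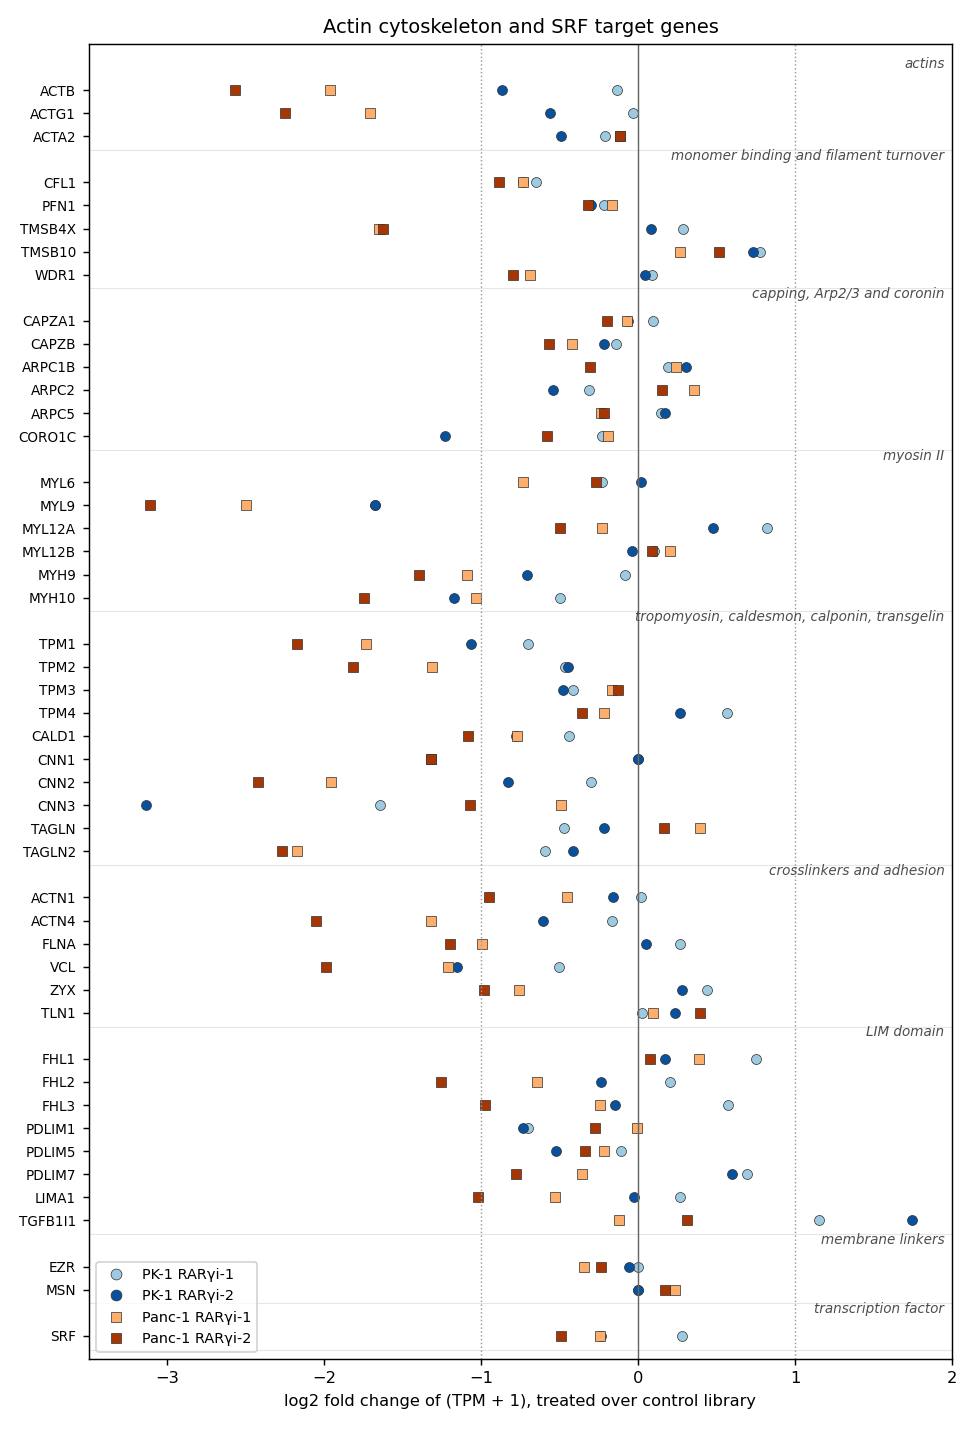
The x axis shows the log2 fold change of (TPM + 1) of the 47 members, treated over the control library, grouped by role, with circles for PK-1, squares for Panc-1, light symbols for RARγi-1 and dark symbols for RARγi-2. Dotted lines mark 2-fold. ACTB and ACTG1 lie between -2.57 and -1.71 in Panc-1 and between -0.87 and -0.03 in PK-1, and CNN3 is the lowest member in PK-1 with RARγi-2.

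The response difference was more than 2-fold higher in PK-1 for 14 members (29.8%) with RARγi-1, where 8.40% of entries were, and for 15 members (31.9%) with RARγi-2, where 11.1% were. Both counts include CNN1, at the floor in every PK-1 library. The latter also includes MYL9, whose PK-1 response is only a bound, and TPM2, at 2.68 TPM or less in PK-1. Over the 41 members that reached 5 TPM in each line, the counts were 13 and 13. The response difference was more than 2-fold lower in PK-1 for CNN3 alone, with either inhibitor, where 3.75% and 7.70% of entries were. The members had a median response difference (log2) of 0.52 for RARγi-1 and 0.61 for RARγi-2, beside 0.03 and -0.02 over all entries. The PK-1 fold change lay above that of Panc-1 in 35 and 36 of the 47 members, beside 52.3% and 49.1% of entries. With RARγi-1, 12 members were more than 2-fold lower in Panc-1 but not in PK-1, beside 4.21% of entries, and MYL9 alone was past 2-fold lower in both lines, beside 2.30%. With RARγi-2, the first count was 13, beside 6.24% of entries, and CNN3, MYL9, MYH10, TPM1 and VCL were past 2-fold lower in both lines, beside 5.72%. Both inhibitors share the control library of each line, so their 2 response differences are not separate checks of each other.

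**Figure D2:**
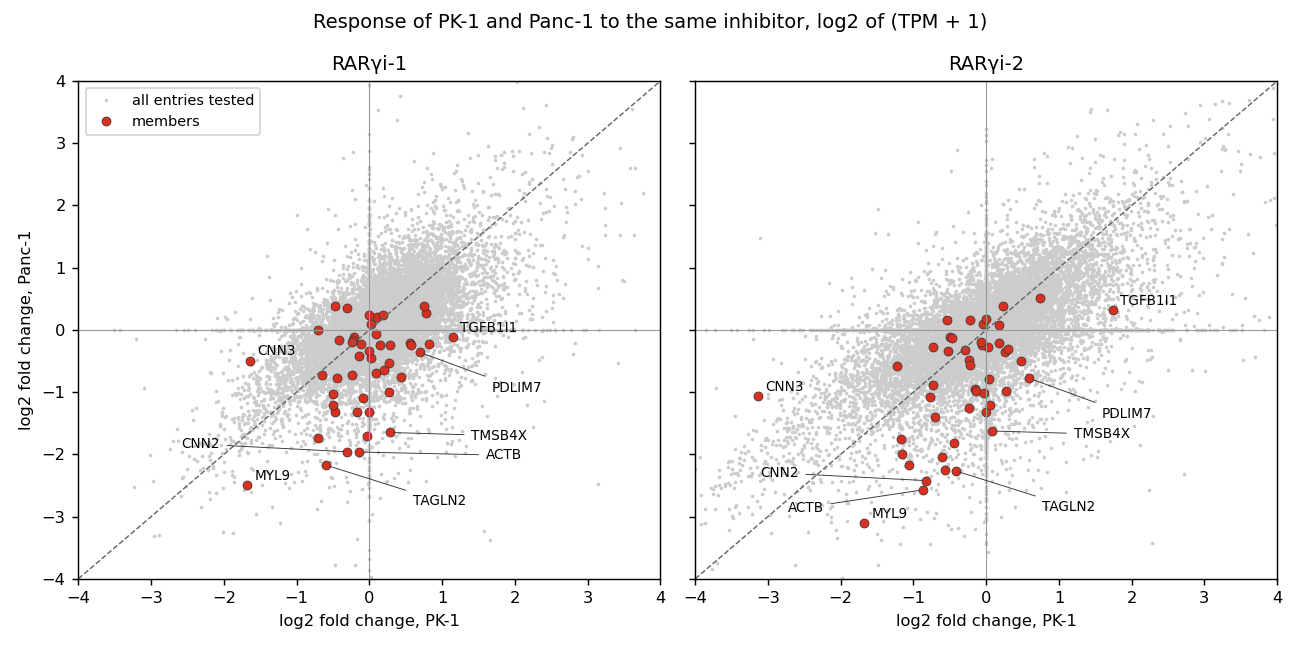
Each point is an entry, with its log2 fold change in PK-1 on the x axis and in Panc-1 on the y axis, for RARγi-1 on the left and RARγi-2 on the right. Grey points are the 12412 entries tested (a few lie outside the axes), red points are the members, and the dashed line marks equal fold changes. Of the 47 members, 35 (left) and 36 (right) lie under this line, and CNN3 and TGFB1I1 stand at opposite ends of the x axis among the members on the right.

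Among the actins, ACTB, the cytoplasmic beta actin, had 6268, 5702 and 3430.5 TPM in the PK-1 control, RARγi-1 and RARγi-2 libraries. In Panc-1 it had 7809, 2003 and 1314 TPM in the same order, which is used below as well. The treated Panc-1 libraries were thus at 25.6% and 16.8% of their control, and those of PK-1 at 91% and 54.7%. The response difference (log2) of ACTB was 1.83 for RARγi-1 and 1.70 for RARγi-2. ACTG1, the cytoplasmic gamma actin, had 4090.0, 4001 and 2771 TPM in PK-1 and 4808, 1473 and 1012 TPM in Panc-1. Its response difference was 1.67 and 1.69, close to that of ACTB. In both lines the libraries were ordered control, RARγi-1, RARγi-2 from high to low for both actins, and the PK-1 values with RARγi-1 lay within the spread of the control. ACTA2, the smooth muscle alpha actin, was at no more than 1.85 TPM in any library. Actin genes have many near-identical pseudogenes, and how reads were shared among the copies is not given. The 17 entries counted as ACTB copies, POTE genes among those searched for, summed to at most 1.98 TPM in any library. The 20 ACTG1 copies summed to at most 9.59 TPM. Copies at the floor were counted as 0 in these sums, so the true sums can be higher.

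**Figure D3:**
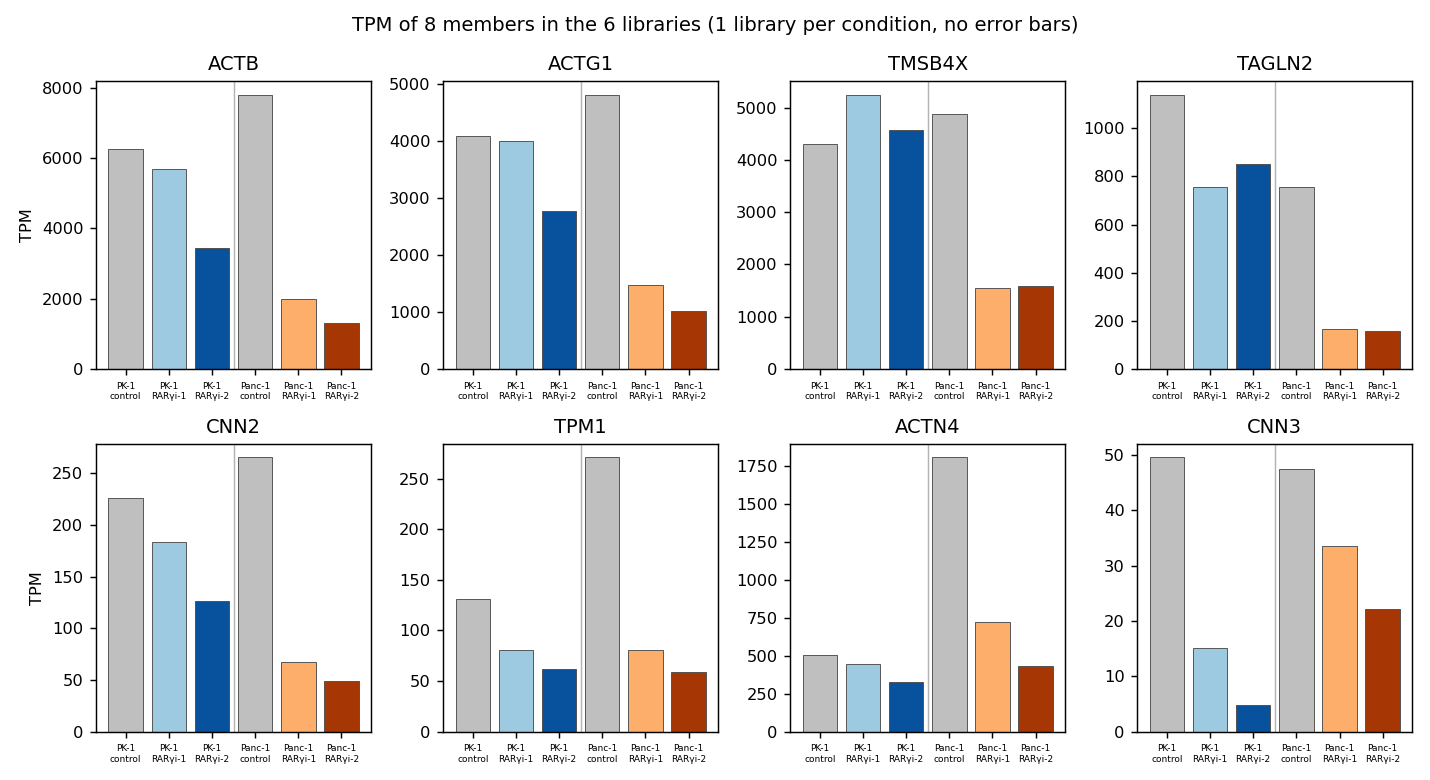
Bars show TPM (y axis, starting at 0, on a scale of its own for each gene) of 8 members in the 6 libraries, 1 library per bar, with controls in grey, PK-1 in blue and Panc-1 in orange and brown. For ACTB, ACTG1, TMSB4X, TAGLN2, CNN2, TPM1 and ACTN4 both treated Panc-1 libraries are under 50% of their control. For CNN3 the treated PK-1 libraries are the lowest, at 15.2 and 4.76 TPM.

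The proteins that bind actin monomers or turn filaments over were mixed. TMSB4X, thymosin beta 4, which holds actin monomers in reserve, had 4311, 5249 and 4567 TPM in PK-1 and 4882, 1556 and 1583 TPM in Panc-1. The treated libraries of Panc-1 were thus at 31.9% and 32.4% of the control, while those of PK-1 were slightly above theirs. Its response difference (log2) was 1.93 with RARγi-1, the largest of all members for that inhibitor, and 1.71 with RARγi-2. TMSB10, the related thymosin beta 10, was higher than the control in all 4 treated libraries, at 172% and 166% of it in PK-1, and in Panc-1 at 120.4% and 143%. The thymosins together therefore made up 9411, 13998 and 13046 TPM in PK-1 and 10569, 8404 and 9719 TPM in Panc-1. CFL1, the filament-severing cofilin, was lower by a similar amount in both lines, with fold changes (log2) between -0.89 and -0.65. PFN1, profilin, which delivers monomers to growing filaments, lay between -0.32 and -0.17. WDR1, a partner of cofilin in disassembly, was at 62% and 57.5% of the control in Panc-1 and at 106% and 103% in PK-1, where the sign with RARγi-1 turns on rescaling.

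The capping proteins and the Arp2/3 complex mostly stayed near the control. CAPZA1 and CAPZB, which cap filament ends, lay between -0.57 and 0.09 (log2) in the 4 comparisons, the top value being CAPZA1 in PK-1 with RARγi-1, whose sign turns on rescaling. ARPC1B, ARPC2 and ARPC5, subunits of the Arp2/3 complex that starts filament branches, lay between -0.54 and 0.35, and ARPC2 held both ends, being lower in PK-1 and higher in Panc-1. CORO1C, a coronin that acts on Arp2/3 networks, was the exception, with 172, 146 and 72.7 TPM in PK-1 and 113, 98.4 and 74.9 TPM in Panc-1. The PK-1 library with RARγi-2 was at 42.2% of its control, and the response difference was -0.04 for RARγi-1 and -0.65 for RARγi-2. None of these 6 members was more than 2-fold lower in Panc-1.

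For myosin II, the motor that contracts actin filaments, the heavy chains were lower in treated Panc-1 cells. MYH9, the heavy chain of non-muscle myosin IIA, had 446, 419.7 and 273 TPM in PK-1 and 359, 168 and 136 TPM in Panc-1. MYH10, the heavy chain of non-muscle myosin IIB, had 14.5, 10 and 5.88 TPM in PK-1 and 28.5, 13.4 and 7.78 TPM in Panc-1. MYH10 was thus lower in both lines, with a response difference (log2) of 0.54 and 0.57, near the spread of 0.52, while that of MYH9 was just over 1 with RARγi-1 and 0.69 with RARγi-2. MYL9, a regulatory light chain known from smooth muscle, had 5.40 TPM in the PK-1 control and was at the floor in both treated libraries, at least 5.40-fold lower. In Panc-1 it had 189, 32.6 and 21.1 TPM, so the treated libraries were 5.80-fold and 8.98-fold lower. The PK-1 values are bounds, and the response difference of MYL9 therefore cannot be read. MYL12A, a regulatory light chain of non-muscle myosin, had 463, 818 and 645 TPM in PK-1 and 579, 492 and 409.7 TPM in Panc-1, above the control in one line and under it in the other. MYL12B, its near-identical neighbour, stayed between -0.04 and 0.20 (log2), its signs in PK-1 turn on rescaling, and reads may be split between both genes. MYL6, the essential light chain, lay between -0.73 and 0.02.

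Of the 10 members that line the filament, 5 were more than 2-fold lower in Panc-1 with RARγi-1, beside 6.51% of entries. With RARγi-2, 7 were, beside 12.0%. CNN1 was among them both times, and CALD1, under 5 TPM in every Panc-1 library, was among them with RARγi-2. In PK-1 the counts were 1 and 2, beside 5.20% and 13.5%. TAGLN2, a transgelin of non-muscle cells, had 1139.8, 754 and 853 TPM in PK-1 and 758, 167 and 157 TPM in Panc-1. Its response difference (log2) was 1.58 for RARγi-1 and 1.85 for RARγi-2, the largest of all members for the latter. TAGLN, its smooth muscle relative, was at 6.17 TPM or less in every library. CNN2, a calponin found in many cell types, had 226, 183 and 127 TPM in PK-1 and 265, 67.5 and 48.7 TPM in Panc-1, and all 4 treated libraries were under their control. CNN3, the acidic calponin, had 49.5, 15.2 and 4.76 TPM in PK-1 and 47.5, 33.5 and 22.1 TPM in Panc-1. The controls of the lines were nearly level for CNN3, and the treated PK-1 libraries were at 30.7% and 9.61% of theirs, against 70.5% and 46.5% in Panc-1. With response differences of -1.15 and -2.06, CNN3 was the opposite of CNN2, a member of the same family. CNN1, the smooth muscle calponin, was listed at the floor in all 3 PK-1 libraries and in both treated Panc-1 libraries, with 4.0 TPM in the Panc-1 control, so it was at least 4.0-fold lower there, and no response of PK-1 can be given.

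Tropomyosins run along the filament and govern what else binds it. TPM1 had 131, 80.3 and 62.3 TPM in PK-1 and 271, 80.6 and 59.3 TPM in Panc-1, and the treated libraries of both lines were lower than their control. TPM2 had 2.68, 1.66 and 1.70 TPM in PK-1, just above the floor, and 955, 384 and 270.0 TPM in Panc-1. The response difference (log2) was 1.03 and 1.11 for TPM1 and 0.84 and 1.37 for TPM2, where the low PK-1 level leaves little room for a change to show. TPM3 lay between -0.48 and -0.13 (log2) in all 4 comparisons. TPM4 was above the control in PK-1 (0.56 and 0.26) and under it in Panc-1 (-0.22 and -0.36). CALD1, caldesmon, which steadies tropomyosin on the filament, had 47.6, 34.8 and 27.4 TPM in PK-1 and 4.57, 2.26 and 1.63 TPM in Panc-1. It was lower in the treated libraries of both lines, with response differences of 0.33 and 0.31, within the spread.

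Among crosslinkers and adhesion proteins, ACTN4, an alpha actinin that bundles filaments, had 504, 448 and 330.0 TPM in PK-1 and 1808, 722 and 436 TPM in Panc-1. Its level was higher in the Panc-1 control than in the PK-1 control, and with RARγi-2 the lines were at 330.0 and 436 TPM. ACTN1, the other alpha actinin, lay between -0.95 and 0.02 (log2), the top value being PK-1 with RARγi-1, whose sign turns on rescaling. FLNA, filamin A, which joins filaments into networks, had 479, 575 and 496 TPM in PK-1 and 343, 171 and 149 TPM in Panc-1. ZYX, zyxin, a protein of focal adhesions and stress fibers, had 108, 147 and 131 TPM in PK-1 and 355, 209 and 179.6 TPM in Panc-1. Both were above the control in treated PK-1 cells and under it in treated Panc-1 cells, with response differences of 1.26 and 1.25 for FLNA and 1.20 and 1.26 for ZYX. VCL, vinculin, which ties adhesions to actin, had 134, 94.2 and 59.7 TPM in PK-1 and 267, 115 and 66.4 TPM in Panc-1. VCL was lower in all 4 treated libraries, by more in Panc-1. TLN1, talin, which links integrins to the filament, lay between 0.02 and 0.39, and the sign of the lowest, PK-1 with RARγi-1, turns on rescaling.

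The LIM domain proteins, which gather at filaments and adhesions, were more mixed. TGFB1I1 (Hic-5), an adhesion protein related to paxillin, had 7.73, 18.4 and 28.2 TPM in PK-1 and 56.4, 51.8 and 70.4 TPM in Panc-1. It was the only member more than 2-fold higher in any comparison, at 2.38-fold and 3.65-fold of the PK-1 control, and the treated PK-1 libraries remained under every Panc-1 library. PDLIM7, which joins filaments to signaling kinases, had 144, 234 and 218 TPM in PK-1 and 104, 80.7 and 60.1 TPM in Panc-1. PDLIM7 thus moved in opposite directions, and all 4 of its fold changes were larger than the spread of the line. FHL2, an SRF target and cofactor, had 56.7, 65.5 and 47.9 TPM in PK-1 and 348, 223 and 145 TPM in Panc-1. LIMA1, which bundles filaments, had 193, 233 and 189.5 TPM in PK-1 and 43.2, 29.6 and 20.9 TPM in Panc-1. With RARγi-2 both were more than 2-fold lower in Panc-1, and in PK-1 they were at 84.4% and 98.2% of the control, the LIMA1 sign turning on rescaling. The other 4, FHL1, FHL3, PDLIM1 and PDLIM5, lay between -0.98 and 0.75 (log2) in all 4 comparisons. PDLIM1 was at 61.3% and 60.1% of the control in PK-1 and at 99.5% and 82.5% in Panc-1.

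Of the linkers between filaments and the membrane, EZR, ezrin, stayed between -0.34 and 0.00 (log2), the latter being PK-1 with RARγi-1, where the sign turns on rescaling. MSN, moesin, was listed at the floor in all 3 PK-1 libraries and had 219.7, 259 and 247 TPM in Panc-1. SRF itself had 18.1, 22.1 and 15.2 TPM in PK-1 and 51.6, 43.5 and 36.5 TPM in Panc-1. Its fold changes (log2) were 0.28 and -0.24 in the former and -0.24 and -0.49 in the latter, and the last was past the spread. In the controls, 13 of the 47 members were more than 2-fold higher in Panc-1, SRF, ACTN4, TPM1, TPM2 and MYL9 among them, beside 17.3% of entries. CALD1, FHL1, PDLIM1 and LIMA1 were more than 2-fold higher in the PK-1 control, beside 16.1% of entries.

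Summed, the members made up 3.43% of all TPM in the PK-1 control, 3.69% with RARγi-1 and 3.15% with RARγi-2. In Panc-1 the shares were 4.17%, 2.43% and 2.32%. The largest part of the Panc-1 difference lay in the actins, which went from 1.26% to 0.348% and 0.233%. Without ACTB, ACTG1, TMSB4X and TMSB10, the sum of the other 43 members was at 67.2% and 60.3% of the control in Panc-1, and at 91.3% and 84.4% in PK-1. Crosslinkers and adhesion proteins summed to 48.6% and 35.4% of the control in Panc-1, and the proteins lining the filament to 39.9% and 32.6%. The group of capping proteins, Arp2/3 and coronin was at 106% and 88.3%.

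**Figure D4:**
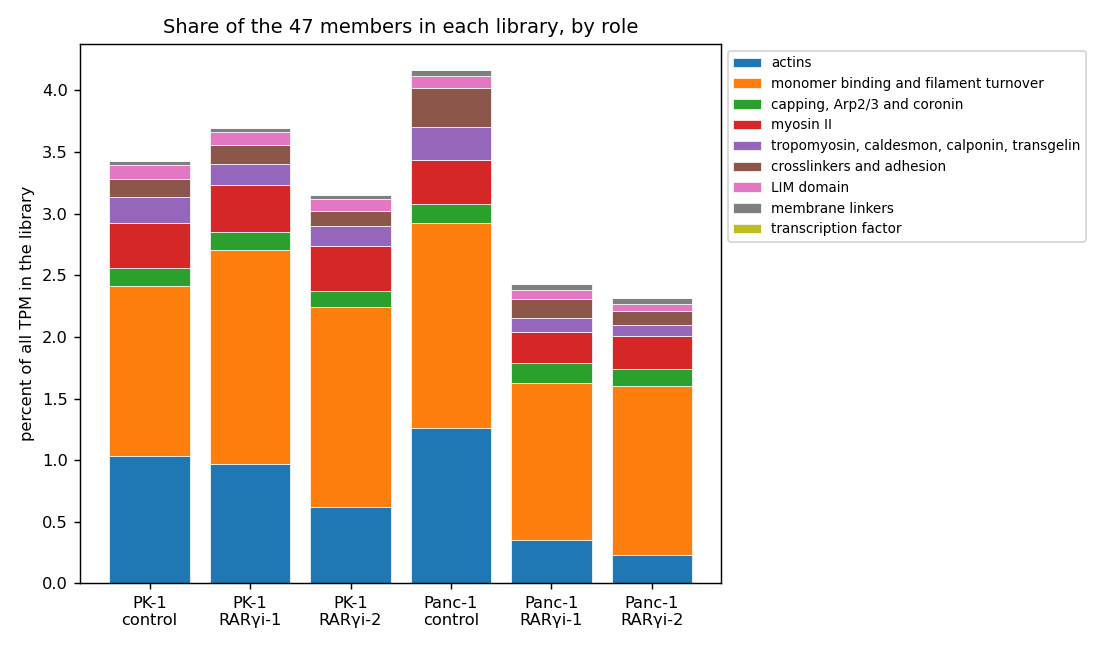
Stacked bars show the share of all TPM in a library (y axis, percent) held by the 47 members, coloured by role, for each of the 6 libraries. For PK-1 the bars reach 3.43%, 3.69% and 3.15%, and for Panc-1 4.17%, 2.43% and 2.32%, where the bottom layer, the actins, shrinks from 1.26% to 0.348% and 0.233%.

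Of 20 further genes that feed into SRF (coactivators, partner factors, kinases and formins among them), 18 had at least 5 TPM in at least 1 library. With RARγi-1, DIAPH3, a formin, was the 1 gene more than 2-fold lower in PK-1 and 0 were higher, beside 5.20% and 9.91% of entries. In Panc-1, 0 were lower and 1 was higher, beside 6.51% and 7.86%. With RARγi-2, DIAPH3 was again the 1 gene more than 2-fold lower in PK-1, beside 13.5%, and ELK3 and MRTFB were in Panc-1, beside 12.0%. In each line 1 gene was more than 2-fold higher, beside 12.9% of entries in PK-1 and 9.02% in Panc-1. MRTFA, the SRF coactivator that binds monomeric actin, had 22.6, 27.4 and 28.9 TPM in PK-1 and 28, 14.8 and 16.2 TPM in Panc-1. Its response difference (log2) was 1.14 and 1.09, of the same sign as that of the actins. The PK-1 fold changes of MRTFA (0.27 and 0.34) lay within the spread. The median response difference of the 18 genes was -0.02 and -0.32, and that of DIAPH3, for one, was -0.86 and -1.68. With RARγi-1, the response difference was more than 2-fold lower in 0 and higher in 1 of the 18, beside 3.75% and 8.40% of entries. With RARγi-2, it was lower in 2 and higher in 2, beside 7.70% and 11.1%. MRTFB, the relative of MRTFA, had 12.8, 14.2 and 10 TPM in PK-1 and 10.6, 6.46 and 4.22 TPM in Panc-1.

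Of 30 further regulators of the same families as the members, 29 had at least 5 TPM in at least 1 library. In PK-1, 0 were more than 2-fold lower with RARγi-1 and RDX alone with RARγi-2, beside 5.20% and 13.5% of entries. GSN and FLNC were more than 2-fold higher there with RARγi-1 and FLNC alone with RARγi-2, beside 9.91% and 12.9%. FLNC was near the floor in the PK-1 control, with 1.76, 4.58 and 7.08 TPM in the 3 PK-1 libraries. In Panc-1, GSN and TLN2 were more than 2-fold lower with both inhibitors, joined by PXN with RARγi-2. FLNC was more than 2-fold higher there with both, beside 7.86% and 9.02% of entries. The 2 and 3 genes lower in Panc-1 stand beside 6.51% and 12.0% of entries. The response difference was more than 2-fold higher in 2 of the 29 with RARγi-1 and in 5 with RARγi-2, beside 8.40% and 11.1% of entries. It was more than 2-fold lower in 0 with RARγi-1 and in RDX alone (-1.02) with RARγi-2, beside 3.75% and 7.70%. Both counts of higher response differences include TLN2, listed at the floor in every PK-1 library, so no PK-1 response of TLN2 can be given. GSN, gelsolin, which severs and caps filaments, had 126, 260.0 and 208 TPM in PK-1 and 227, 84 and 47 TPM in Panc-1. Its response difference of 2.46 and 2.96 (log2) was larger than that of any of the 47 members. The median response difference of the 29 genes was 0.24 and 0.17, under the 0.52 and 0.61 of the members.

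Of the 5 markers of the labelled tissue, 3 keratins were lower in Panc-1 along with the members. KRT8, KRT18 and KRT19, keratins of ductal epithelium, were present in all 6 libraries, and in Panc-1 they had 3530.4, 656 and 566 TPM, 3415, 859 and 750.2 TPM and 1454, 247 and 157 TPM, respectively. In PK-1 they had 5967, 3149.5 and 3779 TPM, 6408, 3792 and 4350.1 TPM and 3711, 3446 and 2646 TPM. All 3 keratins were thus more than 2-fold lower in both treated Panc-1 libraries, beside 6.51% of entries with RARγi-1 and 12.0% with RARγi-2. In PK-1 they were also under the control, by less than 2-fold. The part of the keratins in the result was not tested. EPCAM, an epithelial adhesion protein, had 578, 552 and 497 TPM in PK-1 and 13.4, 19.4 and 9.18 TPM in Panc-1. CDH1, E-cadherin, had 170.1, 270.2 and 385 TPM in PK-1 and was listed at the floor in Panc-1, treated or not. Of the markers of other cells, all 4 of fibroblasts (COL1A2, DCN, LUM and PDGFRB), both of endothelium (PECAM1 and VWF) and MYH11, DES, PTPRC and CPA1 were listed at the floor in all 6 libraries. LMOD1, of smooth muscle, stayed under 5 TPM in every library. SMTN, a smooth muscle marker, had 39.1, 39.7 and 14.4 TPM in PK-1 and 41.2, 33.9 and 22 TPM in Panc-1. CD68, a leukocyte marker that many cells with lysosomes express, had 19.8, 95 and 62.6 TPM in PK-1 and 244, 276 and 238 TPM in Panc-1. PRSS1, the acinar trypsinogen, had 1.06, 11.1 and 21.2 TPM in PK-1 and was listed at the floor in Panc-1. SMTN was lowest with RARγi-2 in both lines, as the actins were, while CD68 and PRSS1 were above the control in treated PK-1 cells, and the part of these genes in the result was not tested.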

How the data were processed

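RNA of PK-1 and Panc-1 cells had been sequenced from TruSeq stranded mRNA libraries. The authors deposited, for each library, log2 TPM values with a floor of 1 TPM. The submitters' processing notes name hg38, and the aligner, counter and annotation are not given in the sources used here. Libraries were grouped by their titles.

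Deposited values were raised from log2 to TPM in Python 3.11.15 (numpy 2.4.6, pandas 2.3.3, matplotlib 3.10.9), and log2 fold changes were taken with a pseudocount of 1 TPM. Members past 2-fold were counted beside all entries that reached 5 TPM in any library. The spread was 1.4826 times the median absolute deviation. With 1 library per condition no test was run. Other pseudocounts, fold thresholds, level filters and scalings were tried as alternatives.

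The members and lists were chosen with earlier results of these data known. Every member past 2-fold in a comparison or in the response difference is given with all 6 values, and the others by range. In the list of genes feeding into SRF, 1 gene past 2-fold is counted but not reported by name here. The counting was checked on simulated data. CArG boxes were searched in RefSeq promoters of GRCh38.p14, and no other coordinates were used.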

Additional observations from a re-analysis of the deposited data

Results flagged for a closer look

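For 10 members, both treated libraries of PK-1 moved to one side of their control and both treated libraries of Panc-1 to the other (21.3% of the 47), as was so for 12.4% of all entries tested. The difference between the lines was not tested for any of them, since each condition has 1 library and both inhibitors share the control of a line. The mean response difference of both inhibitors (log2, PK-1 minus Panc-1) was 1.82 for TMSB4X, 1.26 for FLNA, 1.23 for ZYX, 1.21 for PDLIM7, 1.01 for MYL12A, 0.81 for WDR1, 0.70 for TPM4 and 0.39 for ARPC5, all higher in PK-1 and lower in Panc-1. It was -0.63 for TAGLN and -0.68 for ARPC2, which were lower in PK-1 and higher in Panc-1. TAGLN was near the floor, at 6.17 TPM or less in every library. All 4 fold changes were past the spread of the line for PDLIM7, 3 of 4 for MYL12A and ZYX, none for ARPC5, and 2 of 4 for the other 6. The direction of WDR1 in PK-1 with RARγi-1 turns when the libraries are rescaled by median ratios or upper quartiles.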

How the results depend on the processing

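No paired analysis was possible because each condition has 1 library and no result comes from a test. Directions of the list medians held under the alternatives run, except that of PK-1 with RARγi-1. It was -0.03 over all members and 0.000239 over the 33 members with at least 50 TPM in that line. That filter also left 0 members lower and 0 higher in PK-1 with RARγi-1, 3 lower and 0 higher with RARγi-2, and 0 with a response difference more than 2-fold lower for either inhibitor. Without a pseudocount, 2 members had a response difference more than 2-fold lower with RARγi-1. With a pseudocount of 5, this count was 0, and 1 member was lower and 0 higher in PK-1 with RARγi-1. At 1.5-fold, 6 members were lower and 5 higher in PK-1 with RARγi-1, 13 lower and 3 higher with RARγi-2, and 20 lower in Panc-1 with RARγi-1. The response difference was then lower in 4 and higher in 22 members with RARγi-1, and lower in 3 and higher in 24 with RARγi-2. At 3-fold, 0 members were higher in PK-1 with RARγi-1, 2 lower with RARγi-2, and 7 and 11 lower in Panc-1 with RARγi-1 and RARγi-2. The response difference was then lower in 0 and higher in 4 members with RARγi-1 and higher in 5 with RARγi-2. Rescaling by median ratios or upper quartiles, and adding the copies of a member, chosen after seeing the data, left every count within 1.5 times. Rescaling by median ratios turned the sign of 6 members in PK-1 with RARγi-1 (ACTN1, MYL12B, TLN1, WDR1, EZR and CAPZA1) and of MYL12B and LIMA1 with RARγi-2. TPM keeps no read number, so what the depth could not show is unknown.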
